A study of Mus musculus with 6 samples.

Results

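Of 9 noncoding RNAs chosen by name, 7 snoRNA host RNAs (Gas5, Snhg1, Snhg3, Snhg5, Snhg6, Snhg8 and Snhg12) and the nuclear RNAs Malat1 and Neat1, 5 could be matched to a row among the 39179 genes of the expression table. These 5 were Gas5, Snhg3, Snhg12, Malat1 and Neat1. Snhg1, Snhg5, Snhg6 and Snhg8 could not be matched by symbol or identifier and were not analysed here. RNA-Seq had been performed in germinal center (GC) B cells and naive (resting) B cells of Peyer's patches from the ileum, with 3 pools of mice for each population. All mice were WT C57BL/6 females aged 12 weeks. GC B cells were sorted as Fas+GL7+ and naive B cells as Fas-GL7-, so that both populations came from the same tissue, and a pool hides the differences between its mice. Levels are given as TPM (transcripts per 1000000 transcripts), a per-length unit obtained by rescaling the deposited FPKM of each pool to the same total.

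Small nucleolar RNAs (snoRNAs) guide the methylation and pseudouridylation of ribosomal RNA, and most are cut from introns of host genes after splicing. In noncoding hosts such as Gas5 and the Snhg genes, the spliced exons hold no long conserved reading frame, and the host RNA is often degraded by nonsense-mediated decay (NMD) once ribosomes engage it. Many hosts begin with a pyrimidine tract, the feature of terminal oligopyrimidine (TOP) genes, which include those of ribosomal proteins. Malat1 and Neat1 host no snoRNA. They remain in the nucleus, where Malat1 associates with the splicing speckles and Neat1 is the scaffold of paraspeckles, bodies built around the proteins Sfpq, Nono and Pspc1. GC B cells divide quickly and naive B cells are quiescent.

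The start regions of the host RNAs are shown because the TOP pyrimidine tract lies at the first transcribed base. RefSeq (GRCm38.p6, the build of the deposited values) gave start windows for 4 of the 5 RNAs, with a pair of starts for Gas5. Each sequence runs 5′ to 3′ on the strand of the RNA, from 50 bases before the annotated start to 50 bases from it onward. Capitals mark TATAA or TATAT within the 40 bases before the start and the unbroken pyrimidine run that covers the first transcribed base.
Gas5, first start, chr1:161034551-161034650, plus strand: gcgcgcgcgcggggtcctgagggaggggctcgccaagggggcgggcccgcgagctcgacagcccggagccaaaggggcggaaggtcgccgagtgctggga
Gas5, second start, chr1:161035116-161035215, plus strand: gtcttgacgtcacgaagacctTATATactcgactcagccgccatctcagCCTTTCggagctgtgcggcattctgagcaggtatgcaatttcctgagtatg
Snhg12, chr4:132308628-132308727, plus strand: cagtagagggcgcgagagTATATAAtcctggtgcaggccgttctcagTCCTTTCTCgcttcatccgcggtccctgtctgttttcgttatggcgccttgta
Snhg3, chr4:132353637-132353736, minus strand: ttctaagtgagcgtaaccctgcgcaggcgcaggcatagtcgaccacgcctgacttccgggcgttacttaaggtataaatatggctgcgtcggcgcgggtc
Malat1, chr19:5802623-5802722, minus strand: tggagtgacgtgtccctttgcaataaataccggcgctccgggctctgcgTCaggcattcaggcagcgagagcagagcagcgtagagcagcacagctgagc

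The second start of Gas5 and the start of Snhg12 each held both features. At the second Gas5 start, the first transcribed base was a C in a run of 6 pyrimidines, and TATAT began 29 bases upstream. At Snhg12, the run was 9 pyrimidines long, the first transcribed base was a T, and a TATAT that overlaps a TATAA began 32 bases upstream. The first Gas5 start and the Snhg3 start were at a G, and the Malat1 run was 2 bases long. The Snhg3 sequence holds the letters TATAA after the annotated start, outside the bases searched, so its features depend on the annotated position. Among 32851 mouse start windows, a run of at least 5 pyrimidines over the first base was present in 3330 (10.1%), and TATAA or TATAT on the sense strand of the 40 bases upstream in 1908 (5.81%). The stricter TOP letters, C followed by 4 pyrimidines, were present in 823 windows (2.51%), including 1 of the 5 shown. The E-box CACGTG, which reads the same on both strands, was found in 2349 windows from 250 bases before to 50 after the start (7.15%), but in 0 of those 5. The searches for pyrimidine runs and for TATAA or TATAT were added after the sequences had been seen.

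The 6 pools had between 12075 and 12450 genes at 1 TPM or more. The deposited files give no counts, and read depth, estimated from the steps between low values, was between about 9800000 and 16200000 reads per pool. These depths are approximate, since only 61.8% to 66.6% of the low values lay within 0.1 of a whole read. Fas, the gene of the sort marker, was at 108, 115 and 119 TPM in GC pools 1, 2 and 3 and at 3.05, 3.59 and 3.03 TPM in naive pools 1, 2 and 3. Of the markers of other cells, 10 epithelial markers summed to 65.9 to 143 TPM in GC pools and to 194 to 234 TPM in naive pools, with 8 of the 10 lower on average in GC pools and none at 0 in all pools. The 8 T cell markers summed to at most 5.06 TPM in any pool. The 6 myeloid markers summed to 13.9 to 15.8 TPM in GC and 8.93 to 14.1 TPM in naive pools, although 5 of the 6 were lower on average in GC pools, since Cd68 made up most of the sum (13.1 against 5.88 TPM on average). The 5 plasma cell markers summed to 131 to 135 TPM in GC and 192 to 212 TPM in naive pools, mostly from Xbp1 and Irf4, with 3 of the 5 lower on average in GC pools and Prdm1 higher (5.01 against 0.955 TPM). The 5 stromal markers summed to 22.6 to 24.7 TPM in GC and 122 to 132 TPM in naive pools, almost all of it Pecam1, which B cells also express. The part of these other cells in the differences below was not tested.

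All 5 RNAs were called different between GC and naive B cells, although the call of Gas5 was lost in 8 of 14 other settings. Neat1, Malat1, Snhg12 and Gas5 were lower in GC B cells, by 11.2-fold, 2.39-fold, 1.63-fold and 1.14-fold, and Snhg3 was 1.40-fold higher. Differences were tested with limma on log2(TPM + 1), with Benjamini-Hochberg adjustment over the 12785 genes that reached 1 TPM in at least 3 pools, and a gene was called at an adjusted p under 0.05. All 5 RNAs passed that filter and 5 of 5 were called, beside 65.6% of all genes tested. The 4 lower and 1 higher calls stand beside 30.1% and 35.5% of all genes. The GC and naive ranges did not overlap for 5 of 5, beside 70.7% of all genes, with the GC range below for 4 (32.8% of all genes) and above for 1 (37.8%). The median log2 fold change of the 5 was -0.69, and that of all genes tested was 0.03. With 3 pools against 3, an exact permutation test of 1 gene cannot give a p below 0.10, so the adjusted p-values rest on the limma model. In sorted populations measured in bulk, fewer cells of a type and less RNA per cell cannot be told apart.

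**Figure D1:**
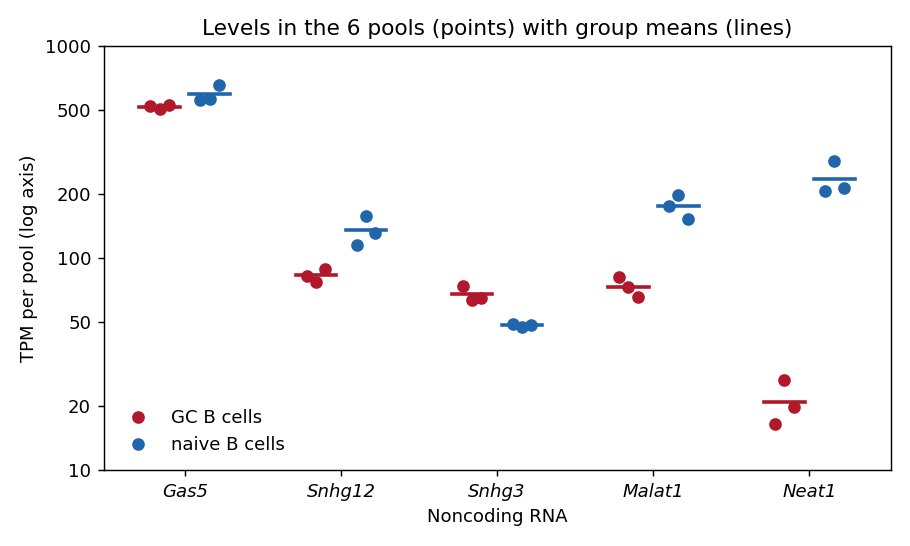
Levels of the 5 RNAs in TPM on a log axis, with 1 point per pool (3 GC in red, 3 naive in blue) and a line at each mean. The GC points lie below the naive points for Gas5, Snhg12, Malat1 and Neat1 and above them for Snhg3, and the widest gap is that of Neat1, at 21.0 against 235 TPM on average.

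Neat1 (ENSMUSG00000092274; chr19:5824708-5845480) was at 16.5, 26.5 and 19.9 TPM in GC pools 1, 2 and 3, and at 207, 286 and 213 TPM in naive pools 1, 2 and 3. Every naive pool was thus several times above the highest GC pool. The means were 21.0 ± 5.06 and 235 ± 43.8 TPM (SD, n = 3 pools each). The log2 fold change was -3.43 (SE 0.195; adjusted p = 1.34e-05, limma), and only 126 of the 12785 genes tested had a lower one. By mean level, Neat1 ranked at the 51.7th percentile of these genes in GC B cells and at the 95.8th in naive B cells. GC pool 2, the highest GC pool for Neat1, also had the highest epithelial marker sum of the GC pools, at 143 TPM beside 65.9 and 77.2 TPM. Among the naive pools, pool 1 had the highest epithelial sum (234 TPM beside 196 and 194 TPM) and the lowest Neat1. In both populations Neat1 was highest in pool 2 and lowest in pool 1. Without GC pool 2 the log2 fold change of Neat1 was -3.61 (adjusted p = 3.50e-05, limma), and without naive pool 1 it was -3.52 (adjusted p = 0.000109, limma). Leaving out the highest GC or the lowest naive pool can only widen the difference. These fits therefore cannot bear on the part of epithelial cells, which was not tested. Frmd8, the protein-coding gene within 5 kb of Neat1, had 28.2 ± 3.90 TPM in the GC pools and 27.4 ± 1.04 TPM in the naive pools (SD, n = 3). Its ranges overlapped and it was not called (log2 fold change 0.03; adjusted p = 0.826, limma).

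Malat1 (ENSMUSG00000092341; chr19:5795690-5802672) lies 22035 bases from Neat1 on the same chromosome. It was at 81.5, 73.2 and 65.6 TPM in GC pools 1, 2 and 3 and at 176, 197 and 153 TPM in naive pools 1, 2 and 3, without overlap. The means were 73.5 ± 7.99 and 175 ± 22.3 TPM (SD, n = 3), with a log2 fold change of -1.24 (SE 0.117; adjusted p = 0.000135, limma). Its level moved from the 94.0th percentile of tested genes in naive B cells to the 82.0th in GC B cells. The nuclear pair also changed relative to each other. Within single pools, the ratio of Neat1 to Malat1 was 0.203, 0.362 and 0.304 in GC pools 1, 2 and 3 and 1.18, 1.45 and 1.40 in naive pools 1, 2 and 3. Per length, Neat1 was therefore the more abundant of the pair in each naive pool and the less abundant in each GC pool. The ratio does not depend on how pools are scaled to each other. It does depend on the transcript length assigned to each RNA and on how well each was captured. Poly(A) selection is not given in the sources used here, so the order of the pair by level is uncertain.

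Snhg12 (ENSMUSG00000086290; chr4:132308678-132311024), the host of Snora16a, Snora44, Snora61 and Snord99, was at 82.1, 77.3 and 89.2 TPM in GC pools 1, 2 and 3. In naive pools 1, 2 and 3 it was at 115, 158 and 132 TPM, all above the GC pools. The means were 82.9 ± 6.01 and 135 ± 21.4 TPM (SD, n = 3), and the log2 fold change was -0.69 (SE 0.120; adjusted p = 0.00239, limma). Trnau1ap, a selenocysteine tRNA-associated protein gene within 5 kb on the other strand, was also lower in GC B cells, with a log2 fold change of -0.26 (adjusted p = 0.0270, limma).

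Snhg3 (ENSMUSG00000085241; chr4:132351933-132353686) lies 40908 bases from Snhg12 and hosts Snora73a and Snora73b, the U17 snoRNAs that act in the cleavage of pre-ribosomal RNA. It was the RNA of the 5 that was higher in GC B cells, at 73.9, 63.8 and 64.8 TPM in GC pools 1, 2 and 3 and 49.0, 47.5 and 48.2 TPM in naive pools 1, 2 and 3. The naive pools were close to each other and all below the GC pools. The means were 67.5 ± 5.60 and 48.2 ± 0.730 TPM (SD, n = 3), with a log2 fold change of 0.47 (SE 0.0690; adjusted p = 0.00106, limma). Rcc1, which encodes the nucleotide exchange factor of Ran, overlaps Snhg3 on the same strand. It was at 99, 103 and 102 TPM in GC pools 1, 2 and 3 and at 17.2, 19.2 and 17.1 TPM in naive pools 1, 2 and 3, a log2 fold change of 2.44 (adjusted p = 5.14e-07, limma). Reads in shared sequence are divided between Snhg3 and Rcc1 by a model, and the share of Rcc1 reads in the value of Snhg3 was not tested. Phactr4, within 5 kb on the same strand, was not called (log2 fold change -0.30; adjusted p = 0.0778, limma). The neighbouring hosts Snhg12 and Snhg3 moved in opposite directions. The ratio of Snhg12 to Snhg3 within a pool was 1.11, 1.21 and 1.38 in GC pools 1, 2 and 3 and 2.36, 3.32 and 2.73 in naive pools 1, 2 and 3.

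Gas5 (ENSMUSG00000053332; chr1:161034601-161038539), first found as a transcript that accumulates in growth-arrested cells, hosts 9 box C/D snoRNAs in the annotation used. It was at 522, 505 and 527 TPM in GC pools 1, 2 and 3 and at 556, 565 and 656 TPM in naive pools 1, 2 and 3. The groups did not overlap, but the highest GC pool and the lowest naive pool were close, and naive pool 3 stood above the other naive pools. The means were 518 ± 11.7 and 592 ± 55.5 TPM (SD, n = 3). The log2 fold change of -0.19 (SE 0.0694; adjusted p = 0.0494, limma) was just past the threshold, and in the settings that lost the call the adjusted p (limma) reached up to 0.127. In the fit blocked on replicate number the adjusted p was 0.0516 (limma), and without GC pool 1, GC pool 2, GC pool 3 or naive pool 2 it was 0.0990, 0.127, 0.0894 and 0.0536. Gas5 stayed among the most abundant RNAs of both populations, at the 98.0th percentile in GC and the 98.4th in naive B cells. Zbtb37, a zinc finger gene that overlaps Gas5 on the other strand, was at 3.75 ± 0.239 TPM in the GC pools and 8.38 ± 0.926 TPM in the naive pools (SD, n = 3), and its part in the reads of Gas5 was not tested.

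The order of the 5 RNAs by TPM, which also depends on assigned lengths and on capture, differed between the populations. In GC B cells Gas5 was highest and Neat1 lowest, and Snhg12, Malat1 and Snhg3 lay between them with neighbouring ranges that overlapped (77.3 to 89.2, 65.6 to 81.5 and 63.8 to 73.9 TPM). In naive B cells Gas5 was again highest, followed by Neat1, which lay above Malat1 in range, and Snhg3 was lowest. The ranges of Malat1 and Snhg12 overlapped there, at 153 to 197 and 115 to 158 TPM. The 5 RNAs together made up 777, 746 and 766 TPM in GC pools 1, 2 and 3 and 1103, 1253 and 1203 TPM in naive pools 1, 2 and 3. Gas5 alone was 67.3% to 68.7% of that sum in GC pools and 45.1% to 54.6% in naive pools.

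The snoRNAs inside these hosts were mostly not measured. All 9 snoRNA rows within Gas5, 60 to 84 bases long, were listed at 0 in all 6 pools. Snora73b was at 15.4, 23.7 and 20.4 TPM in GC pools 1, 2 and 3 and at 4.19, 2.29 and 37.0 TPM in naive pools 1, 2 and 3. Its host Snhg3 was nearly constant across those naive pools. Snora73a was at 8.17, 7.90 and 2.42 TPM in GC pools 1, 2 and 3 and at 1.86, 2.60 and 1.98 TPM in naive pools 1, 2 and 3, and the groups overlapped for both. Of the 4 snoRNAs of Snhg12, Snord99 was listed at 0 in all pools and Snora44 and Snora61 in some. Snora16a was above 0 in all pools, at 161, 106 and 252 TPM in GC pools 1, 2 and 3 and 117, 152 and 136 TPM in naive pools 1, 2 and 3. Over the whole table, 227 of 227 snoRNA rows under 100 bases were listed at 0 in all pools, beside 26 of 50 rows of at least 150 bases (52.0%). The fragment length set for quantification, 180 bases on average (SD 50), exceeds the length of most of these RNAs, so a 0 is no measure of their absence and no test was made.

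Other noncoding snoRNA hosts were compared in the same fit. Of 14 listed, 9 had a row and 8 passed the filter, and 0 were higher, 6 lower and 2 not called (all genes tested: 35.5% higher, 30.1% lower), with a median log2 fold change of -0.57. Snhg20 had the lowest value of those called, at 39.3, 39.0 and 37.1 TPM in GC pools 1, 2 and 3 and 66.7, 80.1 and 78.3 TPM in naive pools 1, 2 and 3 (log2 fold change -0.94; adjusted p = 8.92e-05, limma). Epb41l4aos followed with a log2 fold change of -0.89 (adjusted p = 0.000997, limma). Snhg17, Snhg16, Zfas1 and Snhg15 fell by 0.57, 0.57, 0.43 and 0.39 on the log2 scale. Dancr (-0.49; adjusted p = 0.164, limma) and Snhg9 (-1.41; adjusted p = 0.428, limma) were not called, and Snhg9 was listed at 0 in 3 pools. Like Snhg12 and Gas5, the called hosts of this list were lower in GC B cells, whereas Snhg3 was higher.

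**Figure D2:**
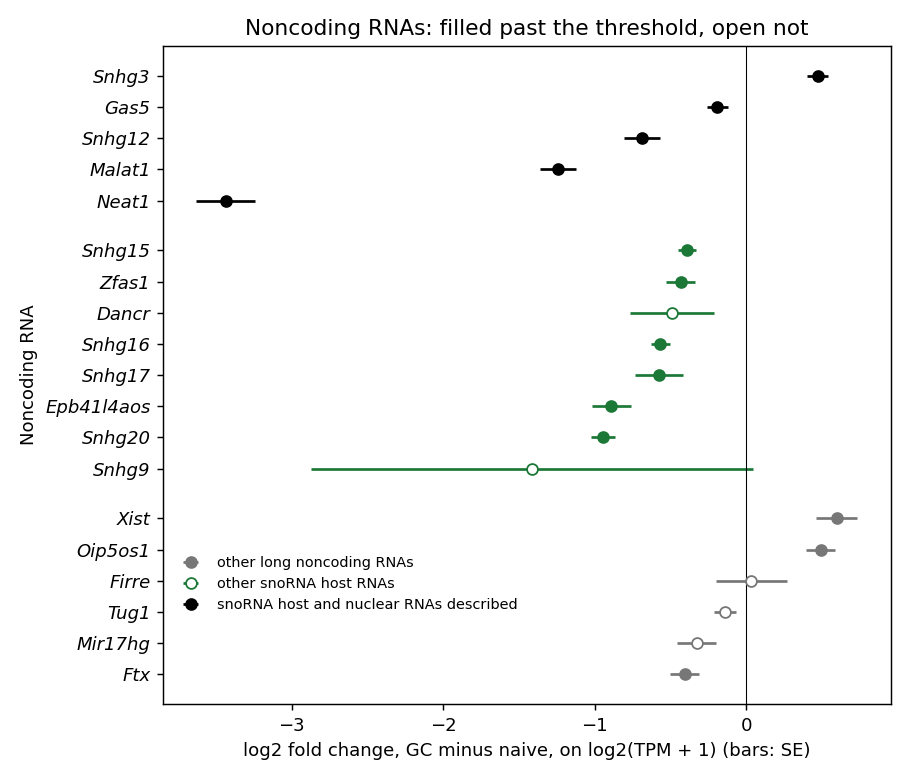
Log2 fold change (GC minus naive, on log2(TPM + 1)) with its SE for the 5 RNAs, 8 other snoRNA host RNAs and 6 other long noncoding RNAs, filled where the adjusted p was under 0.05. The 6 filled points among the other hosts all lie left of 0, Snhg3 lies right of it at 0.47, and Neat1 lies farthest left at -3.43.

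The protein-coding hosts of snoRNAs, which include many ribosomal protein genes, were divided. Of 24 tested, 8 were higher, 8 lower and 8 not called, so that 66.7% were called beside 65.6% of all genes, and the median log2 fold change was -0.05, a value whose sign changed between settings (-0.10 to 0.09). Tcp1, a chaperonin subunit, and Hspa8, a constitutive heat shock protein, had the largest rises (1.13 and 0.81). Rpl12, a ribosomal protein, and Eif4a2, an RNA helicase of translation initiation, had the largest falls (-1.0 and -0.61).

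The mRNAs of proteins that form snoRNA particles were higher in GC B cells. Those of all 8 core proteins of box C/D and H/ACA particles were called higher, beside 35.5% of all genes tested, with a median log2 fold change of 0.50. Nhp2 and Gar1, of the H/ACA particle, had the largest values, 0.87 (adjusted p = 1.01e-05, limma) and 0.79 (adjusted p = 0.000817, limma). Fbl, the methyltransferase of the C/D particle, and Nop10 rose by less, 0.28 and 0.13. Of 9 assembly factors with a row, 7 were higher, 0 lower and 2 not called, with Ruvbl2 (1.23) and Naf1 (1.03) at the top. Among 15 NMD factors, 7 were higher, 2 lower and 6 not called, so that 60.0% were called beside 65.6% of all genes, with a median of 0.03 that changed sign between settings (-0.08 to 0.07). Upf1, the central helicase of NMD, was higher by 0.32, as were Magoh (0.88) and Rbm8a (0.77) of the exon junction complex, whereas Pnrc2 (-0.50) and Casc3 (-0.28) were lower.

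The mRNAs of proteins associated with Neat1 and Malat1 were also compared, and 35.5% of all genes tested were called higher and 30.1% lower. Of 11 paraspeckle proteins, 9 were higher, 0 lower and 2 not called, with a median log2 fold change of 0.68. Sfpq was at 466, 461 and 464 TPM in GC pools 1, 2 and 3 and at 254, 256 and 235 TPM in naive pools 1, 2 and 3 (log2 fold change 0.90; adjusted p = 7.23e-06, limma). Nono and Pspc1, its partners in the paraspeckle, rose by 0.68 and 0.72, and Smarca4, a chromatin remodeler, and Rbm14 had the largest rises of the list (1.60 and 0.97). Of 12 nuclear speckle and Malat1-associated proteins, 8 were higher, 2 lower and 2 not called, with a median of 0.39. The splicing factors Srsf3 (0.83) and Rnps1 (0.72) had the largest rises, and Srsf5 (-0.49) and Son (-0.21), a speckle scaffold protein, were lower.

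**Figure D3:**
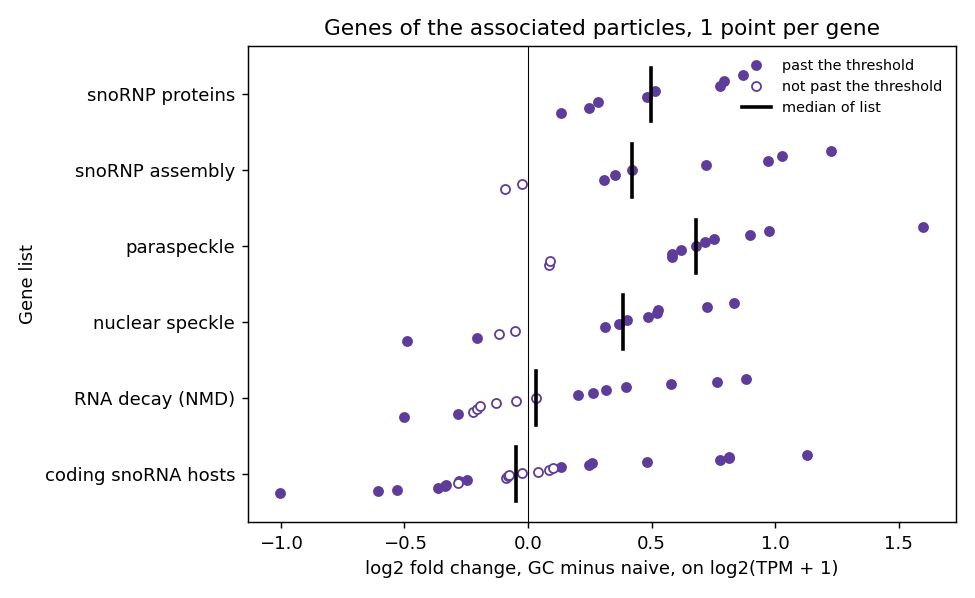
Log2 fold change (GC minus naive, on log2(TPM + 1)) of each tested gene in 6 lists, filled where the adjusted p was under 0.05, with a bar at the list median. The snoRNP and paraspeckle medians lie at 0.50 and 0.68, and those of the NMD factors and the coding snoRNA hosts lie near 0.

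Other long noncoding RNAs showed no common direction. Of 19 listed, 11 had a row and 6 passed the filter. Of these 6, 2 were higher, 1 lower and 3 not called (all genes tested: 35.5% higher, 30.1% lower). Xist, the RNA that coats the inactive X chromosome of these female mice, was higher in GC B cells (219 ± 23.9 against 145 ± 24.5 TPM, SD, n = 3; log2 fold change 0.60; adjusted p = 0.00836, limma). Oip5os1 was higher by 0.49 and Ftx, a neighbor and regulator of Xist, was lower (-0.40). Tug1, at 59.9 and 66.0 TPM, Mir17hg and Firre were not called. The log2 fold changes of all 6 tested were smaller in size than those of Malat1 and Neat1, and these differences between genes were not tested.

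The genes whose pattern over the 6 pools was most like that of the RNAs were sought among 8139 genes by the distance between centered log2(TPM + 1) values. For Neat1 these were Dgka, a diacylglycerol kinase (distance 0.440), the noncoding Gm11346 (0.448) and Sbk1 (0.461). The means were 14.1 TPM in GC and 136 TPM in naive pools for Dgka, and 14.1 and 152 TPM for Sbk1. For Malat1 they were Otud7b, a deubiquitinase (0.162), Zfp869 (0.183) and Pde1b, a phosphodiesterase (0.185). For Gas5 they were Tfam, which packages mitochondrial DNA (0.0846), 1810046J19Rik (0.0891) and Rhbdd2 (0.10).

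The 4 larger differences kept their direction and their calls in each of 14 other settings. The log2 fold change lay between -3.61 and -3.28 for Neat1, between -1.37 and -1.15 for Malat1, between -0.83 and -0.57 for Snhg12 and between 0.35 and 0.51 for Snhg3. That of Gas5 lay between -0.30 and -0.11.

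**Figure D4:**
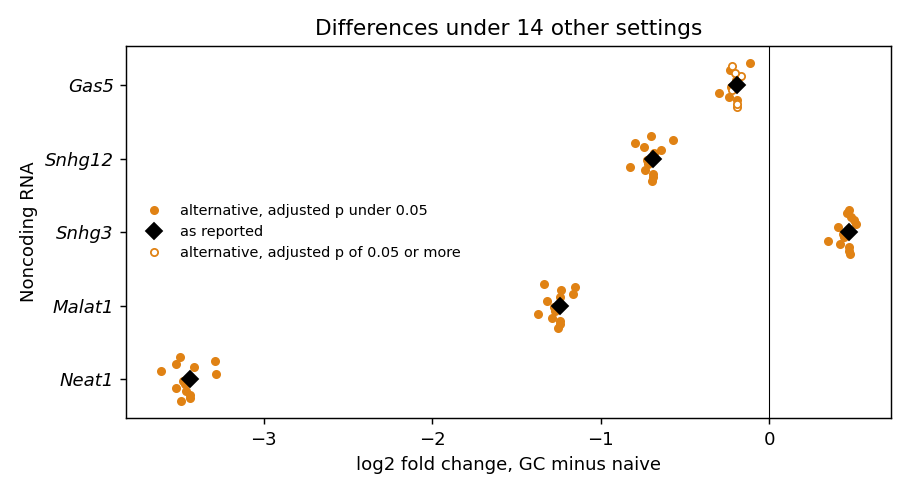
Log2 fold change (GC minus naive) of the 5 RNAs as reported (diamonds) and under 14 other settings (circles, open where the adjusted p was not under 0.05). Open circles occur for Gas5, in 8 of 14 settings, and no point changes sides of 0.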

How the data were processed

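RNA-Seq of 3 GC and 3 naive B cell pools was analysed. The authors prepared unstranded libraries from total RNA (poly(A) selection is not given in the sources used here), quantified reads with RSEM 1.2.25 on the mouse transcriptome (NCBIm38 v75, mean fragment length 180, SD 50) after trimming with cutadapt 1.9, and deposited FPKM per gene and pool. The submitters' processing notes also list CASAVA 1.8, FastQC and edgeR. FPKM depends on the transcript length RSEM assigns, reads of overlapping or near-identical genes are divided by its model, and overlapping genes cannot be separated by strand.

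Each FPKM value was rescaled to TPM so that every pool summed to 1000000. Genes reaching 1 TPM in 3 or more pools were tested with limma 3.58.1 in R 4.3.3 (lmFit, eBayes with trend) on log2(TPM + 1), two-sided, with Benjamini-Hochberg adjustment over all genes tested and a threshold of 0.05. The pseudocount of 1 understates fold changes of low genes. Fold values are ratios of mean TPM. Symbols came from the NCBIM37 annotation, which named 33398 of the 39179 identifiers, with synonyms from RefSeq, and coordinates came from RefSeq GRCm38.p6. Other steps used Python 3.11.15, numpy 2.4.6, pandas 2.3.3, scipy 1.17.1 and matplotlib 3.10.9, and the fit was tested on simulated data.

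The RNAs and the gene lists were chosen with earlier results of these data known. Named genes were all matched RNAs, the 2 largest called changes per direction in each list, genes of the same particle, genes overlapping or within 5 kb, and the 3 most similar genes whose mean reached 10 TPM. Other settings covered a pseudocount of 0.1, no filter, a filter of 5 TPM, FPKM as deposited, quantile normalization, median-of-ratios scaling, rescaling without short RNA, immunoglobulin and mitochondrial genes, the replicate number as a block, and leaving out each pool. Some genes that fall under these rules are not reported here. The methods call the pools biological replicates, and p-values measure the spread between pools.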

Additional observations from a re-analysis of the deposited data

How the results depend on the processing

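Of 14 other settings, each changed 1 choice, and no difference of Neat1, Malat1, Snhg12, Snhg3 or Gas5 changed sign. Gas5 alone among them lost its call, with an adjusted p (limma) of 0.0509 at a pseudocount of 0.1, 0.0846 without a filter, 0.0776 with median-of-ratios scaling, 0.0516 with the replicate block, and 0.0536 to 0.127 in 4 of the 6 fits without 1 pool. The cause was not tested. In fits without 1 pool, 7656 to 8101 genes and 4 to 5 of the 5 RNAs were called, beside 8392 and 5 with all pools. Quantile normalization raised the called genes among the other long noncoding RNAs from 3 to 5 and moved the share of calls higher in GC B cells from 54.1% to 47.8%. Pools with the same number deviated together only weakly (correlations 0.0830, 0.0225 and 0.0456). Even so, 5 of the 6 pools correlated best with the pool of their own number. These values do not settle whether the numbers mark pairs. The methods state no pairing, and the reported fit was unpaired. For Neat1 the SE was 0.195 without and 0.0687 with the replicate block, and for Malat1 0.117 and 0.0791. It changed less for Gas5 (0.0694 and 0.0620), Snhg3 (0.0690 and 0.0668) and Snhg12 (0.120 and 0.122). With the replicate block 7960 genes and 4 of the 5 RNAs were called. The absence of counts limits what can be said of RNAs near 1 TPM and of snoRNAs.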

Other observations

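Snhg1 itself was not analysed here, but genes at its locus had values. Of the 8 snoRNA rows within it, 7 were listed at 0 in all pools. Slc3a2, an amino acid transporter subunit gene within 5 kb of Snhg1 on the other strand, was at 52.7 ± 2.32 TPM in the GC pools and 59.0 ± 2.03 TPM in the naive pools (SD, n = 3 pools each; log2 fold change -0.16; adjusted p = 0.0445, limma).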
